A study of Mus musculus with 4 samples.

Results

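Nodal, Lefty1, Lefty2, Gdf3, Tdgf1, Inhba, Inhbb, Acvr2b and Smad7 are 9 of the 28250 genes for which a normalized expression value was deposited in each of 4 RNA-seq libraries of TBV2 mouse embryonic stem cells (ESC). They were found by symbol, and all 9 were listed. They were chosen from the MS-275 contrast itself, because several were among its largest falls, so their levels and differences are a description and no test is given for them. The cells came from TBV2, a feeder-dependent ESC line, kept with LIF. Libraries Solvent replicates 1 and 2 were from cells held for 24 h with solvent, and libraries MS-275 replicates 1 and 2 from cells held for 24 h with 5 µM MS-275, an inhibitor of class I histone deacetylases. All libraries came from this line, no source says that the replicates were separate cultures, and the spread between them may be technical.

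Nodal and activins are secreted ligands of the TGF-β superfamily. They bind type II receptors such as Acvr2b and type I receptors, and Nodal and Gdf3 also need a coreceptor such as Tdgf1 (Cripto). The receptors phosphorylate Smad2 and Smad3, which enter the nucleus with Smad4 and act with partners such as Foxh1. Lefty1 and Lefty2 are secreted antagonists of Nodal, and Smad7 blocks the receptors from inside the cell. Lefty1, Lefty2, Smad7 and Nodal are themselves known targets of the pathway. In mouse ESC the pathway is active but not needed for self-renewal, and in the embryo it directs mesendoderm and left-right patterning.

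RefSeq promoter windows of GRCm38.p6, from 250 bases before to 50 bases after a gene start, were matched by symbol for 5 of the 9 genes (Inhbb, Tdgf1, Acvr2b, Nodal and Inhba). The windows of Inhbb, with the lowest MS-275 values relative to solvent among these 5, of Tdgf1, with the highest level, and of Nodal, whose groups overlapped, are shown 5′ to 3′ on the strand of the gene, with each CG dinucleotide in capitals.
Inhbb, chr1:119422199-119422498, minus strand: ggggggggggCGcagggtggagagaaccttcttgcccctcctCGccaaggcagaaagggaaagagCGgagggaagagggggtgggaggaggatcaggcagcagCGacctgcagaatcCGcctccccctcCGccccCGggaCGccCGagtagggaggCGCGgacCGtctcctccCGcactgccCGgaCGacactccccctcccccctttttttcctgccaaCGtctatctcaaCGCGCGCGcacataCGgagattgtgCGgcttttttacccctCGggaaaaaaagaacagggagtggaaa
Tdgf1, chr9:110946109-110946408, minus strand: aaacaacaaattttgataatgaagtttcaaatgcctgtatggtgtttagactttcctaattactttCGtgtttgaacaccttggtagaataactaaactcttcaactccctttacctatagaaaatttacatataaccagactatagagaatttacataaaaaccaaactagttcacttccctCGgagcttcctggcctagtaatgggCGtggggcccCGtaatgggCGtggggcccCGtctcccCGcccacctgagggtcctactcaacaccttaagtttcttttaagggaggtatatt
Nodal, chr10:61417722-61418021, plus strand: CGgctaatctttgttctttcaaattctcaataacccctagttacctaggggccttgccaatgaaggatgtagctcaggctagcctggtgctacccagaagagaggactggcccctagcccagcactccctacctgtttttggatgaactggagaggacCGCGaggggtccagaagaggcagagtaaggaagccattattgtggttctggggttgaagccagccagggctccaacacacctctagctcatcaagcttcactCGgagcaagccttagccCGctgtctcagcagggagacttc
The Inhbb window held 23 CG dinucleotides, more than 78.5% of all 32851 mouse promoter windows. The Tdgf1 window held 7, which is the median of all windows, and the Nodal window held 5. The windows of the other two genes held 27 (Acvr2b) and 7 (Inhba). Short motifs were searched on both strands, and no match of one motif overlapped a match of another in these windows. The Foxh1 motif AATNCACA, present in 3.60% of all windows, was not found in any of the 5 windows. The Smad motif CAGAC, present in 49.6% of all windows, was found once in each of the Tdgf1 and Acvr2b windows. The GC box GGGCGG, present in 35.7% of all windows, was found 3 times for Acvr2b and once each for Inhbb and Tdgf1. The TATA box TATAAA, present in 13.6% of all windows, was found in the Inhba window alone. A match of letters does not show a bound site. Whether transcription in these cells began at the annotated gene starts was not tested. For Nodal, almost no aligned reads lay in the first 300 bases after its mm9 gene start.

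Among the ligands, Gdf3 and Inhbb had much lower values with MS-275 while Nodal did not. Gdf3 is a Nodal-like ligand of pluripotent cells, on chr6:122555421-122560105 (mm9, minus strand, 2 exons). Its value was 0.387 and 0.565 in Solvent replicates 1 and 2, and 0.0375 and 0.00782 in MS-275 replicates 1 and 2. Both MS-275 libraries lay below both solvent libraries, at 9.70% of the solvent value in pair 1 and 1.38% in pair 2. On the log2(value + 0.005) scale the mean difference, MS-275 minus solvent, was -4.34, and no gene among the 20336 tested had a lower one. A gene was tested if its value was at least 0.001 in at least 2 libraries, which all 9 genes passed.

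Inhbb encodes the βB subunit of activin B and inhibin B and lies on chr1:121312042-121318825 (mm9, minus strand, 2 exons). Its value was 0.284 and 0.127 with solvent, and 0.0226 and 0.00552 with MS-275. Replicate 2 was the lower of the 2 libraries in both conditions, and the groups did not overlap. The log2 difference was -3.52, and Gdf3 was the 1 gene with a lower difference. The pair differences were -3.39 and -3.65.

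Nodal lies on chr10:60880720-60888086 (mm9, plus strand, 3 exons). Its value was 0.239 and 0.227 with solvent, and 0.272 and 0.169 with MS-275. The MS-275 libraries lay on either side of the solvent libraries. The pair differences were 0.18 and -0.42, and the mean log2 difference was -0.12 (0.22 without MS-275 replicate 2).

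Inhba encodes the βA subunit of activin A and lies on chr13:16103684-16119044 (mm9, plus strand, 5 exon pieces). It had the lowest level of the 9 genes, with 0.00218 and 0.00892 in the solvent libraries and 0.00325 and 0.0124 in the MS-275 libraries. Within each condition replicate 2 was higher, and the groups overlapped. The log2 difference of 0.26 stood near the median of all tested genes, which was 0.20. It was -0.22 without Solvent replicate 1 and -0.28 without MS-275 replicate 2.

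Both secreted antagonists had lower values with MS-275. Lefty1 lies on chr1:182865153-182868531 (mm9, plus strand, 4 exons). Its value was 0.254 and 0.771 with solvent, and 0.0480 and 0.0430 with MS-275. The solvent libraries differed 3.04-fold from each other, while the MS-275 libraries were nearly equal and lay below both. The log2 difference was -3.15, with 6 of the 20336 genes lower.

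Lefty2, the paralog of Lefty1, lies upstream on the same strand at chr1:182823239-182829234 (mm9, 4 exons). Its value was 0.179 and 0.245 with solvent, and 0.0212 and 0.0158 with MS-275. The groups did not overlap, and the log2 difference of -3.20 was close to that of Lefty1, with 5 genes lower.

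Of the receptor components, Tdgf1 had the highest level of the 9 genes and the widest spread between the solvent replicates. Tdgf1 lies on chr9:110842114-110848662 (mm9, minus strand, 6 exons). Its value was 0.603 and 4.03 with solvent, and 0.437 and 1.84 with MS-275. MS-275 was lower in each pair, at 72.4% and 45.6% of solvent, but the 6.68-fold spread between the solvent libraries was larger than either difference, and the groups overlapped. The alignments that these values followed also differed in repeated reads between replicates, as given below. The log2 difference of -0.80 turned to 0.57 without Solvent replicate 2 and to 0.24 without MS-275 replicate 1. Acvr2b, a type II receptor of activin and Nodal, lies on chr9:119311562-119342619 (mm9, plus strand, 10 exon pieces). Its value was 0.0893 and 0.0987 with solvent, and 0.0567 and 0.0605 with MS-275. The groups did not overlap, and the log2 difference was -0.64.

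Smad7, the inhibitory Smad, lies on chromosome 18 (mm9, plus strand). Its value was 0.233 and 0.264 with solvent, and 0.111 and 0.104 with MS-275. The replicates were close in both conditions, the groups did not overlap, and the log2 difference was -1.17, with 428 genes lower.

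**Figure D1:**
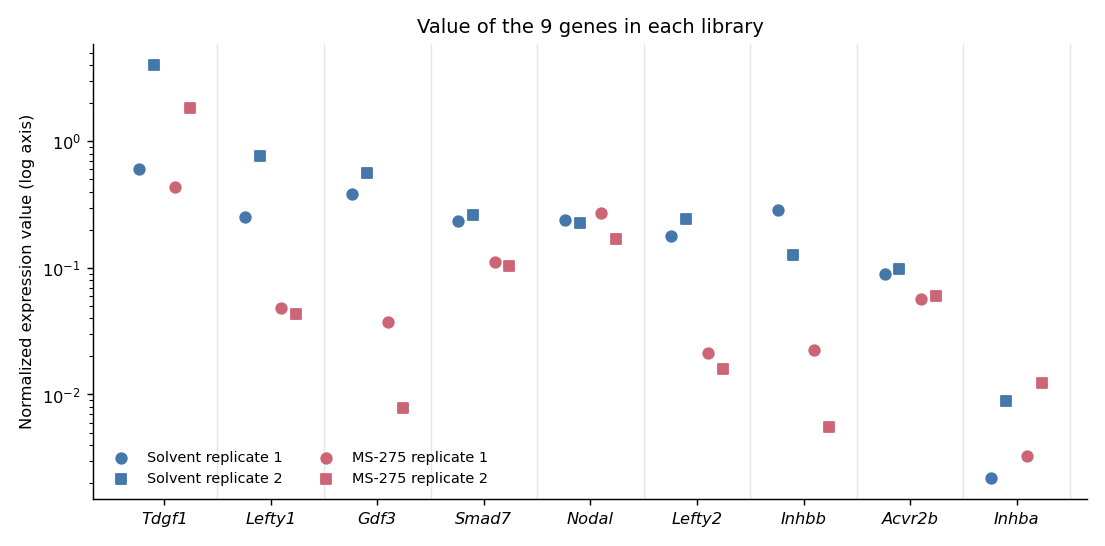
Normalized expression value (log axis) of the 9 genes in each of the 4 libraries, 1 point per library, with the genes ordered by their solvent mean. The MS-275 points of Gdf3, Inhbb, Lefty1 and Lefty2 lie far below their solvent points, those of Nodal and Inhba overlap them, and Tdgf1 differs mainly between replicates.

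By counts, 7 of the 9 genes were lower with MS-275 in both pairs, Inhba was higher in both, and Nodal went opposite ways. Lefty1, Lefty2, Gdf3, Inhbb and Smad7 (5 genes) were at least 2-fold lower in both pairs, with values under 0.001 set to 0.001, as were 2.04% of all 28250 genes. None of the 9 was at least 2-fold higher in both pairs, where 11.5% of all genes were. The groups did not overlap for 6 of the 9 genes, all lower with MS-275, against 12.0% of the tested genes lower and 32.3% higher. Their median log2 difference was -1.17, and that of all tested genes was 0.20. The genes were chosen from this contrast, so these counts describe the choice. Quantile normalization moved the median of all genes to -0.03 and median-ratio scaling moved it to 0.03. Relative to the median of 0.20, the differences were -4.54 for Gdf3, -3.72 for Inhbb, -1.37 for Smad7, -0.32 for Nodal and 0.06 for Inhba. The direction of Inhba flipped under quantile normalization.

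**Figure D2:**
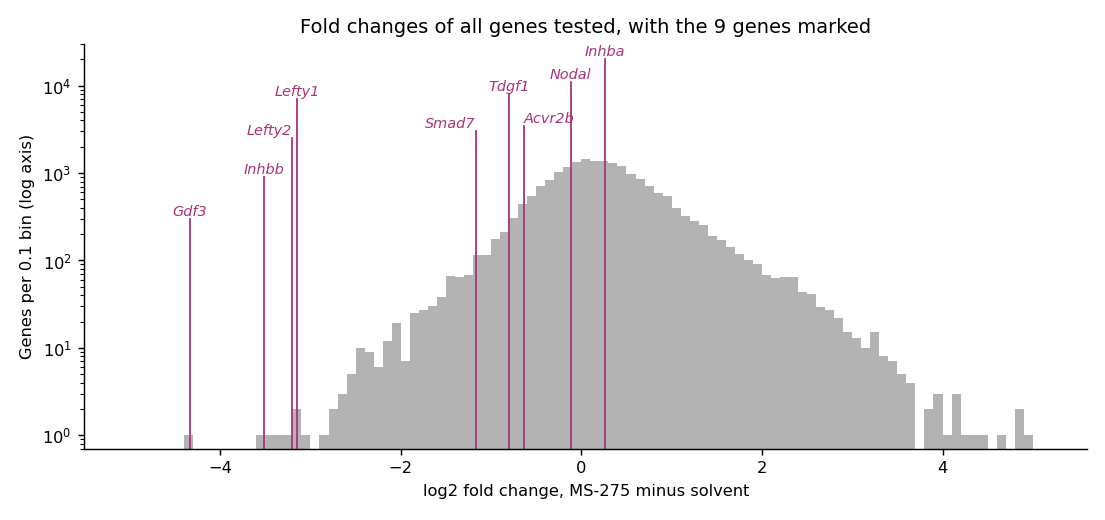
Number of tested genes (log axis) per 0.1 bin of log2 difference, MS-275 minus solvent, with the 9 genes marked by lines. Gdf3, Inhbb, Lefty2 and Lefty1 stand at the lower end of the 20336 genes, while Nodal and Inhba stand within the bulk.

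The order of the levels changed with MS-275, comparing mean values on the authors' scale. That scale was per length: across 13007 genes, which are not independent replicates, values correlated at 0.939 to 0.955 on the log2 scale with alignments per length and at 0.842 to 0.906 with alignments alone, both in the file of the other replicate. With solvent the order was Tdgf1, Lefty1, Gdf3, Smad7, Nodal, Lefty2, Inhbb, Acvr2b and Inhba. Neighbours in this order had overlapping libraries except Gdf3 over Smad7, Inhbb over Acvr2b and Acvr2b over Inhba. With MS-275 the order was Tdgf1, Nodal, Smad7, Acvr2b, Lefty1, Gdf3, Lefty2, Inhbb and Inhba. There, only the neighbours from Gdf3 downward (Gdf3 and Lefty2, Lefty2 and Inhbb, Inhbb and Inhba) overlapped. Nodal thus moved from the fifth place to the second while its mean value, 0.233 in the solvent libraries, was 0.220 in the MS-275 libraries.

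Aligned reads of 35 bases give a second measure of the same RNA. They numbered 23467935 and 9785619 in the files of Solvent replicates 1 and 2, and 20008841 and 10915650 in those of MS-275. In the files of replicate 1, 53.2% (solvent) and 54.4% (MS-275) of alignments repeated the position and strand of another, and none did in those of replicate 2. Counted once per position and strand, 5608253 to 7346036 positions fell on exons. Values and files were crossed between replicates. Of the 36 values of the 9 genes, 25 were within a factor of 1.3 of the alignments in the file of the other replicate (per kb of exon per 1000000 alignments, divided by 100), and 6 were within that factor of the file of their own library. Most values of replicate 1 thus followed a file without repeated positions, and most values of replicate 2 a file with them. Which file belongs to which library was not settled, so pairs of values and pairs of files may carry opposite numbers.

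Counted at distinct positions, the same 4 genes stood lowest. Gdf3 had 843 and 636 positions on its exons in the solvent files and 30 and 66 in the MS-275 files. Inhbb had 642 and 1194 with solvent and 34 and 105 with MS-275. Lefty2 had 649 and 435 against 55 and 57, and Lefty1 had 725 and 406 against 90 and 86. Relative to all positions on exons, the solvent files exceeded the MS-275 files 22.8-fold and 10.8-fold for Gdf3, and 15.3-fold and 12.7-fold for Inhbb. The ratio was 6.54 and 5.27 for Lefty1, and 9.58 and 8.52 for Lefty2.

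Smad7, with 707 and 666 positions against 297 and 384, was 1.93-fold and 1.94-fold higher with solvent by this measure, just under the 2-fold mark that its values passed. Acvr2b, with 126 and 105 against 47 and 81, was 2.18-fold and 1.45-fold higher with solvent. Nodal had 458 and 423 positions with solvent and 305 and 534 with MS-275, with ratios of 1.22 and 0.884. Inhba rested on very few positions, 28 and 3 with solvent and 34 and 6 with MS-275, so its difference was not resolved at this depth. Whether repeated reads are independent molecules was not tested. These counts carry counting error and also differences between files of the same condition. Relative to all positions on exons, those differences were 1.01-fold in both conditions for Smad7. For Inhbb they were 1.95-fold with solvent and 2.36-fold with MS-275.

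**Figure D3:**
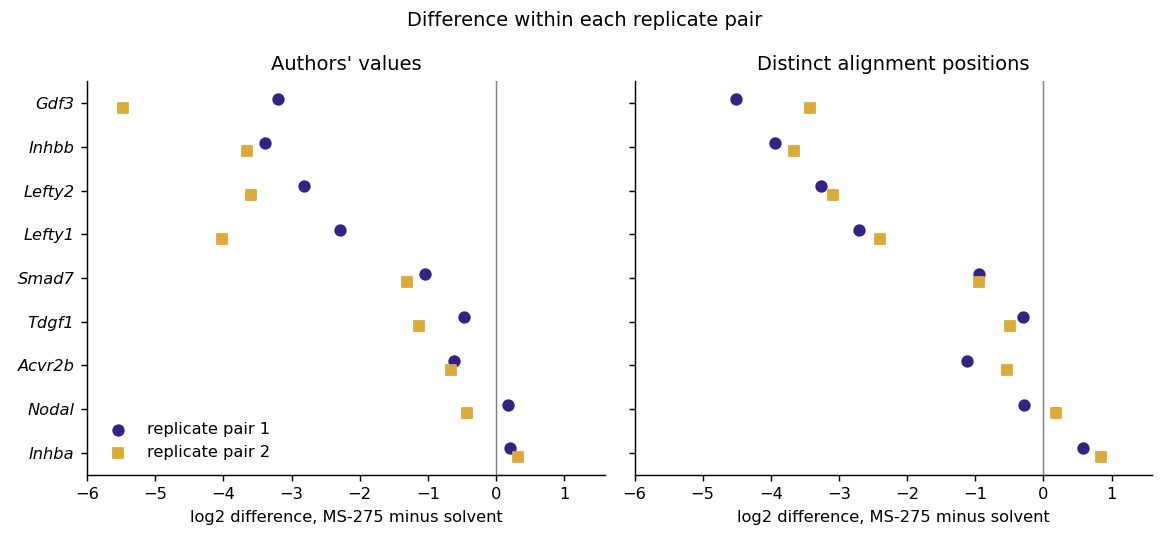
The log2 difference, MS-275 minus solvent, within each replicate pair for the 9 genes, from the authors' values with 0.005 added (left) and from distinct alignment positions relative to all positions on exons (right), numbered by deposited file. Gdf3, Inhbb, Lefty2 and Lefty1 lie below -2 in both pairs on both measures, and Nodal lies on both sides of 0.

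The spread of Tdgf1 between replicates was smaller at distinct positions, a measure with an upper limit set by the exon length, which narrows differences in densely covered genes. In the file of Solvent replicate 1, 17916 alignments of Tdgf1 lay on 1121 positions, or 16.0 alignments a position, and in that of MS-275 replicate 1 6959 lay on 741, or 9.39 a position. On the scale used above, the values of Tdgf1 were 0.972 to 1.02 times the alignments in the file of the other replicate. In each condition the lower value thus followed the file without repeated positions, and the higher value the file with them. Whether repeated reads account for the spread of the values was not tested. At distinct positions the solvent files differed 1.09-fold, where the values had differed 6.68-fold. With 1121 and 1169 positions against 741 and 925, Tdgf1 was then 1.23-fold and 1.41-fold higher with solvent, and its log2 difference was -0.40 where the values gave -0.80. For Lefty1 the solvent files differed 1.70-fold, where the values differed 3.04-fold, and the log2 difference was -2.55.

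Reads from near-identical copies could mix 3 of the genes. Of the 35-base windows of the Lefty1 exons, 25.2% (408 windows) occurred elsewhere in the mm9 genome, and all of these had a copy within the Lefty2 gene. For Lefty2 the share was 24.9%, and for Tdgf1 34.5%, mostly in a copy on chromosome 16. Almost no alignments lay on these windows, with 0 for each gene in both files of replicate 1 and at most 13 positions in a file of replicate 2. Over the windows found once in the genome, the solvent over MS-275 ratios were 6.54 and 5.23 for Lefty1, 9.58 and 8.55 for Lefty2, and 1.23 and 1.41 for Tdgf1. Whether the deposited values count such shared reads is not stated.

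The lower signal of Gdf3, Inhbb and Lefty1 ran over the whole gene. The 2 exons of Gdf3 held 160 and 683 distinct positions in the file of Solvent replicate 1, and 5 and 25 in that of MS-275 replicate 1. In Inhbb, the second exon held 93.9% and 91.2% of the exon positions in these files. The 4 exons of Lefty1 held 199, 63, 68 and 395 positions in the solvent file and 29, 7, 6 and 48 in the MS-275 file. The 3 exons of Nodal held 30, 158 and 270 positions in the solvent file and 30, 88 and 187 in the MS-275 file. Acvr2b had 33.1% to 67.6% of its positions within its introns, the highest share of the 9 genes in both files of replicate 1. Tdgf1 had 11.4% to 48.5%, the highest share in both files of replicate 2. How far the counts of both genes depend on the exon model was not tested, as no other model was counted.

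**Figure D4:**
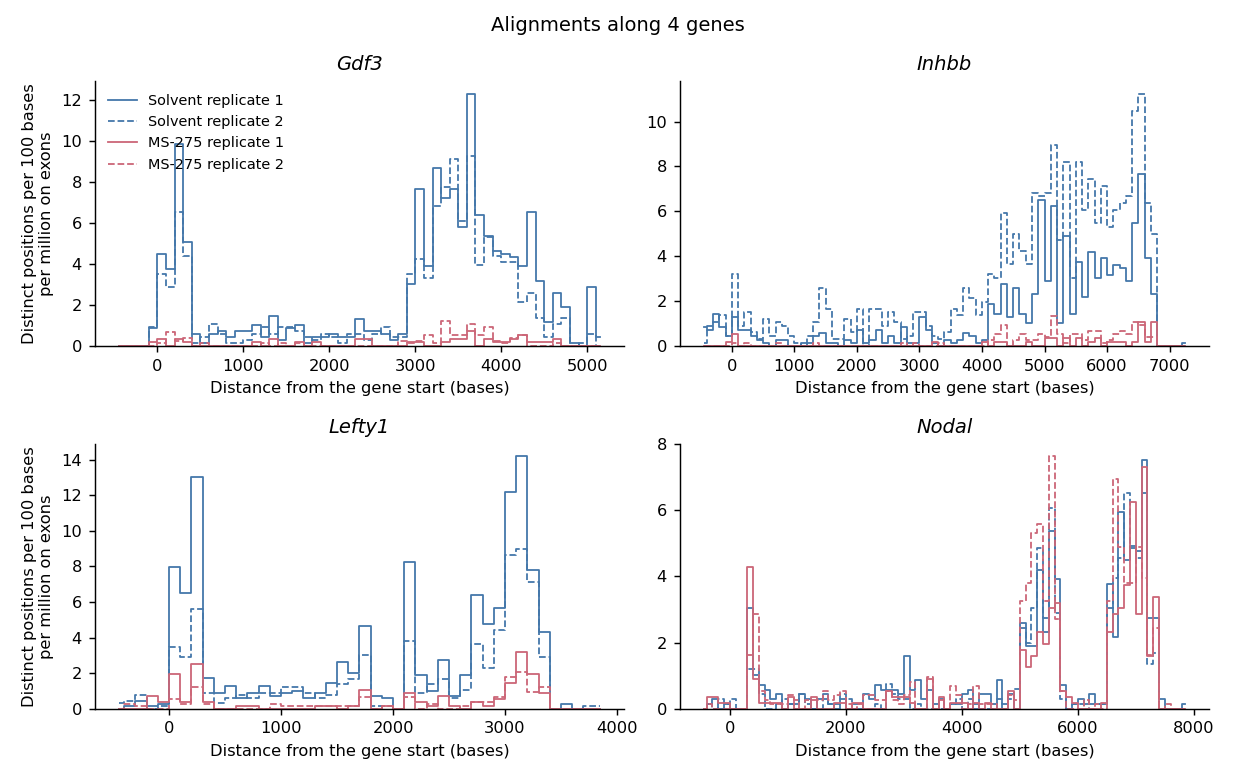
Distinct alignment positions per 100 bases, per 1000000 positions on exons, along Gdf3, Inhbb, Lefty1 and Nodal, against the distance in bases from the gene start, with 1 line per deposited file. The MS-275 lines of the first 3 genes stay low over every exon. Those of Nodal rise over the same exons as the solvent lines, in places above them and in places below.

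The rest of the pathway was read from 6 lists of 51 further genes, of which 49 were listed and 47 tested with limma on log2(value + 0.005), adjusted over the whole table by Benjamini-Hochberg. Without the replicate block none of the 47 passed an adjusted p of 0.05. At an unadjusted p under 0.05, 7 were higher and 5 lower. Over all genes tested, 1 passed as higher (0.00492%) and none as lower (0%). With the replicate number as a block, 10 of the 47 were higher with MS-275 and 11 lower, against 21.0% of all tested genes higher and 6.46% lower. Scaling moved this split, to 8 higher and 15 lower after quantile normalization and 9 higher and 13 lower after median-ratio scaling, both with the block. At distinct positions without the block, 8 of 45 were higher and 10 lower, against 15.7% and 5.3% of all genes tested there. Of the genes called with the block, 7 higher and 8 lower were also called at distinct positions without it. Cfc1, Bambi, Igsf1, Inha, Pcsk6 and Tgif2 were not. In what follows, rose and fell stand for a call with the block, and each adjusted p pair is given without and then with it.

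Among processing enzymes and other ligands, 1 of 9 rose and 4 fell. Inhbe, the βE activin subunit, fell from 0.0148 and 0.00599 to 0.00129 in MS-275 replicate 1 and a listed 0 in replicate 2 (limma adjusted p = 0.0892 and 0.000799). Pcsk6, a convertase that cleaves Nodal precursors, fell from 0.178 and 0.0735 to 0.0904 and 0.0270 (limma adjusted p = 0.427 and 0.00314). Inha and Inhbc, further inhibin and activin subunits, also fell (limma adjusted p = 0.379 and 0.0382 for Inha, 0.197 and 0.0125 for Inhbc). Gdf11, a ligand related to myostatin, rose from 0.0190 and 0.0153 to 0.0415 and 0.0575 (limma adjusted p = 0.318 and 0.00560). Tgfb2 had a log2 difference of 0.42 and did not pass.

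Of 7 further receptors and coreceptors, 2 rose and none fell. Cfc1 (Cryptic), the other EGF-CFC coreceptor of Nodal beside Tdgf1, rose from 0.00394 and 0.0148 to 0.0353 and 0.0318 (limma adjusted p = 0.264 and 0.00391). Tgfbr3 (betaglycan), which binds TGF-β and inhibins, rose from 0.0258 and 0.0330 to 0.0571 and 0.0791 (limma adjusted p = 0.362 and 0.00834). The type I receptor Acvr1b and the type II receptor Acvr2a had log2 differences of -0.43 and -0.23 and did not pass.

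Of 5 other antagonists, 3 rose and none fell, while the values of the Lefty genes were lower. At distinct positions without the block, 1 of the 5, Fstl3, was called higher. Fstl3, a follistatin-like protein that binds activin, rose from 0.00952 and 0.00605 to 0.0580 and 0.0636 (limma adjusted p = 0.0890 and 5.57e-05). Bambi, a pseudoreceptor, rose from 0.0949 and 0.0825 to 0.141 and 0.145 (limma adjusted p = 0.446 and 0.0398). Igsf1 rose by 0.88 on the log2 scale (limma adjusted p = 0.654 and 0.0349), though its groups overlapped. Fst (follistatin) and Dand5, an antagonist of Nodal at the node, had log2 differences of -0.43 and -0.53 and did not pass.

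Among Smads and their nuclear partners, 2 of 7 fell and none rose. Foxh1, the forkhead partner of Smad2 and Smad3, fell from 0.101 and 0.0741 to 0.0569 and 0.0223 (limma adjusted p = 0.346 and 0.00574). Smad3 fell from 0.0857 and 0.0382 to 0.0400 and 0.0158 (limma adjusted p = 0.506 and 0.0127). Zfyve9, which anchors Smads at endosomes, and Drap1, a corepressor that binds Foxh1, had log2 differences of 0.23 and 0.38 and did not pass.

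Of 8 intracellular negative regulators other than Smad7, 4 fell and none rose. Pmepa1, a membrane protein that sequesters Smads, fell from 0.144 and 0.0966 to 0.0674 and 0.0313 (limma adjusted p = 0.234 and 0.00146). Tgif1, a corepressor of Smads, fell from 0.728 and 0.906 to 0.491 and 0.282 (limma adjusted p = 0.342 and 0.00950). Tgif2 and Ski, also corepressors, fell (limma adjusted p = 0.206 and 0.00353 for Tgif2, 0.443 and 0.0320 for Ski). Smurf2, a ubiquitin ligase, had a log2 difference of 0.30 and did not pass.

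Of 11 known Nodal targets of the primitive streak and endoderm, 4 rose and 1 fell. T (Brachyury), a marker of the streak, rose from 0.00699 and 0.00354 to 0.0466 and 0.0222 (limma adjusted p = 0.152 and 0.000374). Fgf8 rose from 0.00256 and 0.00128 to 0.0207 and 0.00952 (limma adjusted p = 0.117 and 0.00103). Lhx1 and Sox17, of the streak and endoderm, also rose (limma adjusted p = 0.0968 and 0.00197 for Lhx1, 0.231 and 0.00266 for Sox17), and all 4 stayed at low levels. Otx2, of the epiblast and anterior endoderm, fell from 0.352 and 0.279 to 0.152 and 0.0830 (limma adjusted p = 0.113 and 0.000259). Fgf5, of the primed epiblast, had a log2 difference of -0.16 and did not pass.

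**Figure D5:**
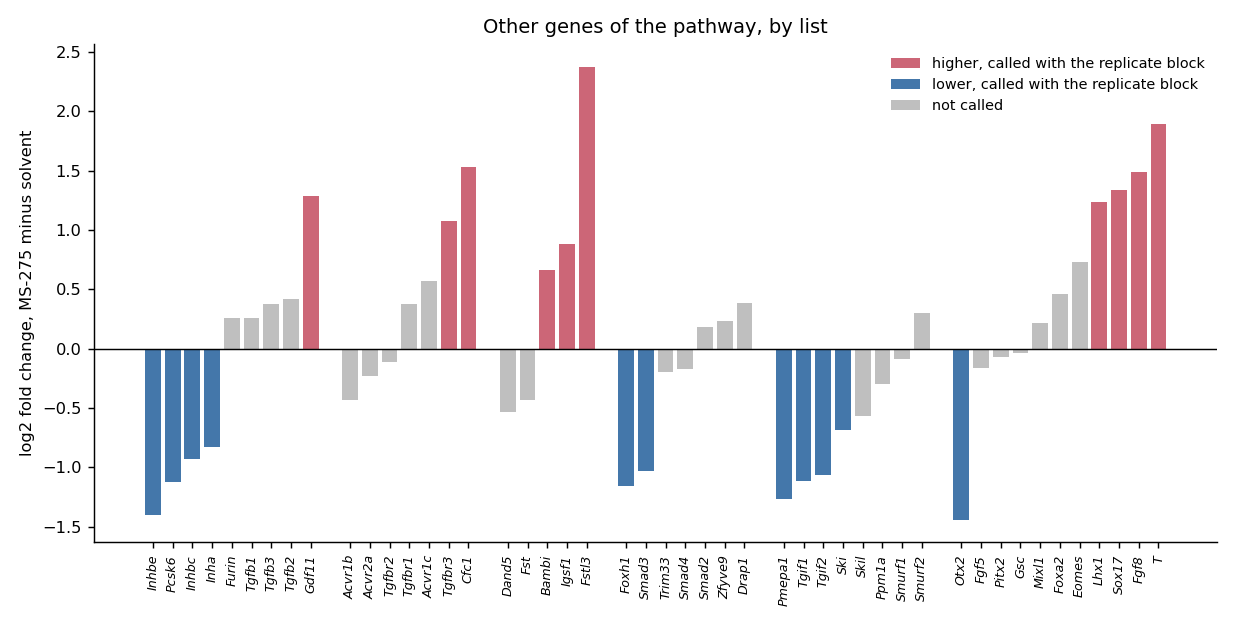
The log2 difference, MS-275 minus solvent, of the 47 tested genes of the 6 pathway lists, 1 bar per gene, from left to right processing and other ligands, receptors and coreceptors, antagonists, Smads and partners, intracellular negative regulators, and targets. Coloured bars passed limma with the replicate block (10 higher, 11 lower), and no gene passed without it.

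The labelled cell type was checked with 9 listed ESC markers, all above 0 in every library, whose summed value was 5.48 and 19.2 with solvent and 4.39 and 11.7 with MS-275. Of this sum, Dppa5a gave 0.293 and 5.51 with solvent, and 0.293 and 4.05 with MS-275. With the block Esrrb, Utf1, Fgf4 and Pou5f1 fell and none rose (limma adjusted p = 0.000337 to 0.0473 with the block and 0.163 to 0.661 without it). At distinct positions without the block, 2 of these, Utf1 and Fgf4, were called lower. The groups of Pou5f1 overlapped. The line depends on feeder cells, and the summed value of 12 fibroblast markers was 0.351 and 0.308 with solvent and 0.656 and 0.682 with MS-275. With the block, 6 of the 12 (Col1a1, Col1a2, Thy1, Lum, Fbn1 and Pdgfrb) rose and none fell (limma adjusted p = 5.60e-05 to 0.0395 with the block and 0.0814 to 0.464 without it). The groups of Fbn1 overlapped. The rest did not pass and went both ways. Col3a1, Dcn and Prrx1 had log2 differences of -0.52, -0.72 and -0.36, and Col5a2, Postn and Twist1 had 0.25, 0.11 and 0.22. Thy1 and Col1a2 had the highest mean values of the 12 in both conditions. At distinct positions without the block, 3 of the 12 (Col1a1, Thy1 and Pdgfrb) were called higher. For both marker lists, the shares over all tested genes with the block were 21.0% higher and 6.46% lower. At distinct positions without the block they were 15.7% higher and 5.3% lower. All 12 were above 0 in every library, the lowest being Lum at 0.00066 in Solvent replicate 1. The part of either shift in the values of the 9 genes was not tested, and fewer cells expressing a gene cannot be told apart from less RNA in each cell.

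Of 17 nearest tested genes beside the 9, 11 did not pass limma with the block, 4 fell and 2 rose, and none passed without it. Of all tested genes, 6.46% fell and 21.0% rose with the block. The 2 that rose were Dppa3 (beside Gdf3) and Xylb (beside Acvr2b). The 4 that fell were Apobec1 (beside Gdf3), Lrrc2 (beside Tdgf1), Gli2 (beside Inhbb) and X99384 (beside Nodal). On the mm9 annotation, Apobec1, 2959 bases from Gdf3, fell with the block (limma adjusted p = 0.158 without and 0.000682 with it), from 0.217 and 0.135 to 0.0811 and 0.0567. On the other side Dppa3 (Stella), a gene of naive ESC and germ cells 16323 bases away, rose with the block (limma adjusted p = 0.0855 and 3.73e-05), from 0.0162 and 0.0234 to 0.0731 and 0.413. Lrrc2, 5387 bases from Tdgf1, fell from 0.249 and 0.187 to 0.0588 and 0.0348 (limma adjusted p = 0.0613 without the block and 1.30e-05 with it). Gli2, a transcription factor of hedgehog signalling and the nearest tested gene on one side of Inhbb at 361846 bases, fell from 0.238 and 0.198 to 0.0278 and 0.0104 (limma adjusted p = 0.0581 without the block and 1.39e-06 with it).

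The genes whose pattern was most like that of Nodal or Lefty1 were ranked by the root mean square difference of their centred log2 values over the 4 libraries. For Nodal these were Gm6314, Smurf1 and Atp10a, at 0.0161, 0.0167 and 0.0189. For Lefty1 they were Ripply1, Socs2 and 2410007B07Rik, much less close at 0.423, 0.489 and 0.511. Ripply1 had 0.0567 and 0.128 with solvent and 0.0121 and 0.0125 with MS-275. With 4 libraries, such likeness is a description.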

How the data were processed

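RNA was poly(A)-selected, fragmented and sequenced on a Genome Analyzer IIx. The authors mapped the reads to mm9, as their processing notes also name, and deposited for each library a normalized expression signal value per gene made with Genomatix, whose formula is not given in the sources used here. They also deposited the alignments, shorter tables and tables of their own ratios between conditions; the last 2 kinds were not used. Groups were taken from the titles, and the library called a duplicate is replicate 2. The 9 genes, the lists and the rules were chosen with earlier results of these data known.

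The 20336 genes that reached 0.001 in 2 or more libraries were fitted with limma 3.58.1 (lmFit and eBayes with a trend, R 4.3.3) on log2(value + 0.005), a scale that understates the change of low genes, and called at a Benjamini-Hochberg adjusted p under 0.05. The main fit had no replicate block. The pairing used in the blocked fit comes from column headers of the shorter tables, which call replicate 1 of both conditions old. Over 20336 genes, the deviations of same-numbered libraries from their group means correlated at 0.764.

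Alignments were counted by their midpoint on exons that GENCODE M1 (mm9) gives to 1 gene, in Python 3.11.15, once per position and strand. Reads lay about equally on both strands, so antisense reads were not told apart. Genes with at least 10 positions in at least 2 libraries (16783) were tested with limma on log2 positions per 1000000 with 0.5 added. The fits of the values, with and without the block, were run on simulated data that held a shared replicate shift. Limits on recovered and false calls were set there for the fit with the block alone.

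Named genes were the 9 genes; in each list, the 2 with the largest difference in each direction, where there were that many; the markers; the nearest tested gene on each side of each of the 9 (not all are reported here); and the 3 genes most like Nodal and Lefty1. The other list genes named with a call, such as Bambi and Lhx1, were named after their values were seen. The pathway genes Gdf1 and Eng and the marker Tfcp2l1 were not matched among the listed symbols. Alternatives were other pseudocounts, filters and scalings, a fit without a trend, the block, distinct positions and each library left out in turn.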

Additional observations from a re-analysis of the deposited data

How the results depend on the processing

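The calls across the whole table depended on how the replicates were handled. With no replicate block, 1 gene was called higher and 0 lower by limma, with 2974 and 564 at an unadjusted p under 0.05. The count called higher was 0 with a pseudocount of 0.001 or 0.02, no filter, quantile normalization, median-ratio scaling or no trend. It was 466, with 65 lower, when the mean value had to reach 0.01. With the replicate block it was 4277 higher and 1314 lower. Distinct positions gave 2631 higher and 889 lower, and with the replicate block 4939 and 2326. Quantile normalization with the block gave 2936 and 2961, and median-ratio scaling with the block 3414 and 2383; both combinations were added after the data were seen. Without 1 library, the higher count ranged from 0 to 160 and the lower count from 0 to 29, the remaining library of that condition being assumed to vary like the others. Of the 47 other pathway genes, 1 was called higher with a mean value of at least 0.01. With the replicate block 10 were higher and 11 lower, at distinct positions 8 and 10 of 45 (Eng, not matched among the values, is one of the 10), and with both 13 and 14. Quantile normalization with the block gave 8 and 15, and median-ratio scaling with the block 9 and 13. Without 1 library 0 were called higher and 0 to 1 lower, the 1 being without Solvent replicate 2. The counts of 5 and 0 genes at least 2-fold lower and higher in both pairs stayed within 1.5 times under every alternative run. Without 1 library, the log2 difference of Tdgf1 ran from -2.16 to 0.57 and that of Inhba from -0.28 to 0.80. Tdgf1 turned to 0.57 without Solvent replicate 2 and 0.24 without MS-275 replicate 1. Inhba turned to -0.21 under quantile normalization, with or without the block, to -0.22 without Solvent replicate 1 and to -0.28 without MS-275 replicate 2. In Nodal, the difference ran from -0.46 (without MS-275 replicate 1) to 0.22 (without MS-275 replicate 2). The cause of these changes was not tested. The other 6 genes stayed lower under every alternative run, with Gdf3 between -5.20 and -3.47 and Lefty1 between -3.94 and -2.36. Values and alignments rest on 2 libraries per condition, which limits every comparison here.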
